A study of Mus musculus with 4 samples.

Results

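Glycolysis in mouse mammary glands was followed through 10 genes: the hexokinases Hk1 and Hk2, the phosphofructokinases Pfkl and Pfkp, the regulator Pfkfb3, and Aldoa, Pgk1, Eno1, Pkm and Ldha, which encode later enzymes of the pathway. They were found by an exact match of the gene symbol in the deposited tables and gave 11 of the 25806 listed gene rows, because Aldoa has 2 rows. The study set mammary glands of MMTV-PyMT mice with a miR-9 knockout (2 libraries, called knockout 1 and knockout 2) against glands of MMTV-PyMT mice without it (2 libraries, control 1 and control 2). All mice were females on a mixed C57BL/6 background, controls were littermates, and glands were taken at the hyperplastic stage. In every group the MMTV promoter drives the polyoma middle T oncogene mainly in the mammary epithelium, so the controls carry the oncogene too. The knockout removes exon 1 of a miR-9 gene, from heterozygous founders. Not given in the labels are the miR-9 gene concerned, the zygosity of the sequenced mice, their age, and whether each library came from its own mouse. The targeted small RNA was not measured, so the genotype labels could not be checked against it.

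Glycolysis splits glucose into pyruvate, and many tumours run it fast and turn the pyruvate into lactate. Its main control point is phosphofructokinase, which is switched on by fructose-2,6-bisphosphate. That signal molecule is made and broken down by the bifunctional PFKFB enzymes. Pfkfb3 encodes the PFKFB enzyme whose kinase activity most outweighs its phosphatase, and it is known for raising glycolysis in growing, hypoxic and endothelial cells. Hypoxia-inducible factors switch on many genes of the pathway through a short ACGTG core in their promoters. The brain-enriched microRNA miR-9 represses messenger RNAs that pair with its seed.

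The mature miR-9 strands are shown because they define which letters in a 3′ UTR could pair with miR-9. Capitals mark the seed, bases 2 to 8 from the 5′ end, and the sequences are RefSeq's for GRCm38.p6. The same mature sequences come from Mir9-1 on chromosome 3, Mir9-2 on chromosome 13 and Mir9-3 on chromosome 7. A deletion in a miR-9 gene therefore need not remove these strands, and their level in the knockouts was not measured.

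mmu-miR-9-5p: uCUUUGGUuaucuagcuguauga

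mmu-miR-9-3p: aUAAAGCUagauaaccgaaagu

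The longest annotated 3′ UTR of each gene (GENCODE M21) was searched on the transcript strand for 7-base and 8-base matches to each seed. For the 5p strand the 7-base matches were ACCAAAG (paired to the whole seed) or CCAAAGA (with a final A), and an 8-base match holds both. For the 3p strand they were AGCTTTA (whole seed) or GCTTTAA (with a final A). Matches to the 5p strand lay in Hk2, 2 of them, and in Pfkp, 1. The Pfkfb3 3′ UTR of 3063 bases held no match to the 5p seed and 1 match to the 3p seed. None of the 10 genes held an 8-base match. The sites are printed with 9 bases on each side of the match, which is in capitals, as transcribed from the minus strand of GRCm38. They lie at chr6:82726779-82726803 and chr6:82726222-82726246 for Hk2, chr13:6581097-6581121 for Pfkp and chr2:11471994-11472018 for Pfkfb3.

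Hk2, first 5p site: ggaacccaaACCAAAGctagactcg

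Hk2, second 5p site: gcaaagaaaACCAAAGgatttgttt

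Pfkp, 5p site: ttccatgccACCAAAGgtttccttc

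Pfkfb3, 3p site: tctagattgGCTTTAAttgttcatt

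Among the 15862 tested genes with a 3′ UTR, 21.93% held a match to the 5p seed and 18.53% a match to the 3p seed. With 2 and 1 members, the glycolytic genes held such letters at no unusual rate. A match describes letters and is not a tested site.

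The promoters of Pfkfb3, Pgk1 and Ldha are shown because all 3 genes hold the ACGTG core, while Pfkfb3 was called higher in knockouts and the values of Pgk1 and Ldha were lower in both knockouts. Each window runs from 250 bases before to 50 after a RefSeq start site (GRCm38.p6), is written on the strand of the gene, and has the core in capitals on either strand, with overlapping cores merged. The Pfkfb3 windows are chr2:11553880-11554179 (the outer start) and chr2:11502041-11502340 (the inner start), both on the minus strand. The Pgk1 window is chrX:106186850-106187149 and the printed Ldha window, the outer of 2, is chr7:46845554-46845853, both on the plus strand.

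Pfkfb3, outer start: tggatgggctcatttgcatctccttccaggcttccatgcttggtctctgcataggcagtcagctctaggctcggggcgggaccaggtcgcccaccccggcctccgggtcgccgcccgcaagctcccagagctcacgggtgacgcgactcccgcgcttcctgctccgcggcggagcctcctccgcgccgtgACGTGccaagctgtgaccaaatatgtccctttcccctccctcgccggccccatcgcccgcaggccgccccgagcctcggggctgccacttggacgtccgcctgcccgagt

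Pfkfb3, inner start: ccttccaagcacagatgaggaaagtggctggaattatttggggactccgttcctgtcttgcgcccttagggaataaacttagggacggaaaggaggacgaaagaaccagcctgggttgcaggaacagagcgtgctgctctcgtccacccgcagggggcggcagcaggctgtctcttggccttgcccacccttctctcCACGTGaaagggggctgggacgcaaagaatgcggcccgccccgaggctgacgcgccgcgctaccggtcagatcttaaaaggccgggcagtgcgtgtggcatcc

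Pgk1: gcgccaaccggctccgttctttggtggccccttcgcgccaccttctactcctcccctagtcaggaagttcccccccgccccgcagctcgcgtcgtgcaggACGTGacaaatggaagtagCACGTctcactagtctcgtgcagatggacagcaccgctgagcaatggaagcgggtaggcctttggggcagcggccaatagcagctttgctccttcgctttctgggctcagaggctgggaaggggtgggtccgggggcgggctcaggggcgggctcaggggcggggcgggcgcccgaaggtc

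Ldha: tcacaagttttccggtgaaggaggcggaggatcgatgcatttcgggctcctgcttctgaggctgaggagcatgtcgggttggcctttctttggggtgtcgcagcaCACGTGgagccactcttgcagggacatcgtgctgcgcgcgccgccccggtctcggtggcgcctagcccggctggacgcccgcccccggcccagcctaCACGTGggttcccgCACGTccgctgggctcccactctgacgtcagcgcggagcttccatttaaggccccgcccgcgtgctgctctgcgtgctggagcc

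The core occurred 1 time in each Pfkfb3 window, 2 times in the Pgk1 window and 3 times in the printed Ldha window. The other Ldha window, chr7:46846832-46847131, held none. In all, 7 of the 10 genes had it in at least 1 of their windows. Among the 7897 tested genes with a mean value of at least 200, that share was 30.23%. Pfkl, Pfkp and Eno1 had none in these windows. The core was thus found in genes with higher and with lower values in knockouts.

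Values below are normalised read counts: reads per gene divided by 1 scaling factor per library by the authors. The 4 libraries held 15904798 and 16073229 normalised reads in knockouts and 16378833 and 16418668 in controls, and each member except the second Aldoa row had at least 254 of them in every library. Log values of all tested genes correlated at 0.9778 between the knockouts and 0.9728 between the controls. Across groups the correlation ran from 0.9533 to 0.9721, and control 2 gave the lower values. Glands are mixtures, so fewer cells of a type and less RNA per cell cannot be told apart here.

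Pfkfb3 was the member that passed the test. It stood at 1001.8 and 847.88 normalised reads in knockout 1 and knockout 2, against 525.01 and 422.46 in control 1 and control 2. Both knockouts lay well above both controls, and the gap was wider than the spread within either group. The means were 925 ± 109 in knockouts and 474 ± 72.5 in controls (SD, n = 2 each), a 1.95-fold difference. On the log2(value + 1) scale Pfkfb3 was higher by 0.97 (SE 0.16), with a Benjamini-Hochberg adjusted p of 0.0475 from limma's moderated test over 22455 genes. At an adjusted p under 0.05, 131 genes were called, 0.583% of all tested: 93 higher (0.414%) and 38 lower (0.169%). Pfkfb3 is ENSMUSG00000026773, chr2:11471433-11554077 on the minus strand. No other gene shared at least 100 of the 50-base stretches of its coding sequence.

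The call was close to the threshold. Without control 1 the adjusted p was 0.0115. It was 0.0778 without control 2, 0.732 without knockout 1 and 0.577 without knockout 2. In the last 2 fits limma called 0 genes in all, while 1384 and 1805 had an unadjusted p under 0.05. A pseudocount of 0.1, a filter at a mean of 10 and limma without trend and robust settings also ended the call, with adjusted p-values of 0.0882, 0.0671 and 0.278. The log2 difference stayed between 0.81 and 1.12 in these fits. With 2 libraries a group, 0.33 is the smallest two-sided p of an exact permutation test, so the calls rest on limma's fit over all genes. With no label saying that libraries came from separate mice, p-values measure the spread between these libraries, which may be technical.

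**Figure D1:**
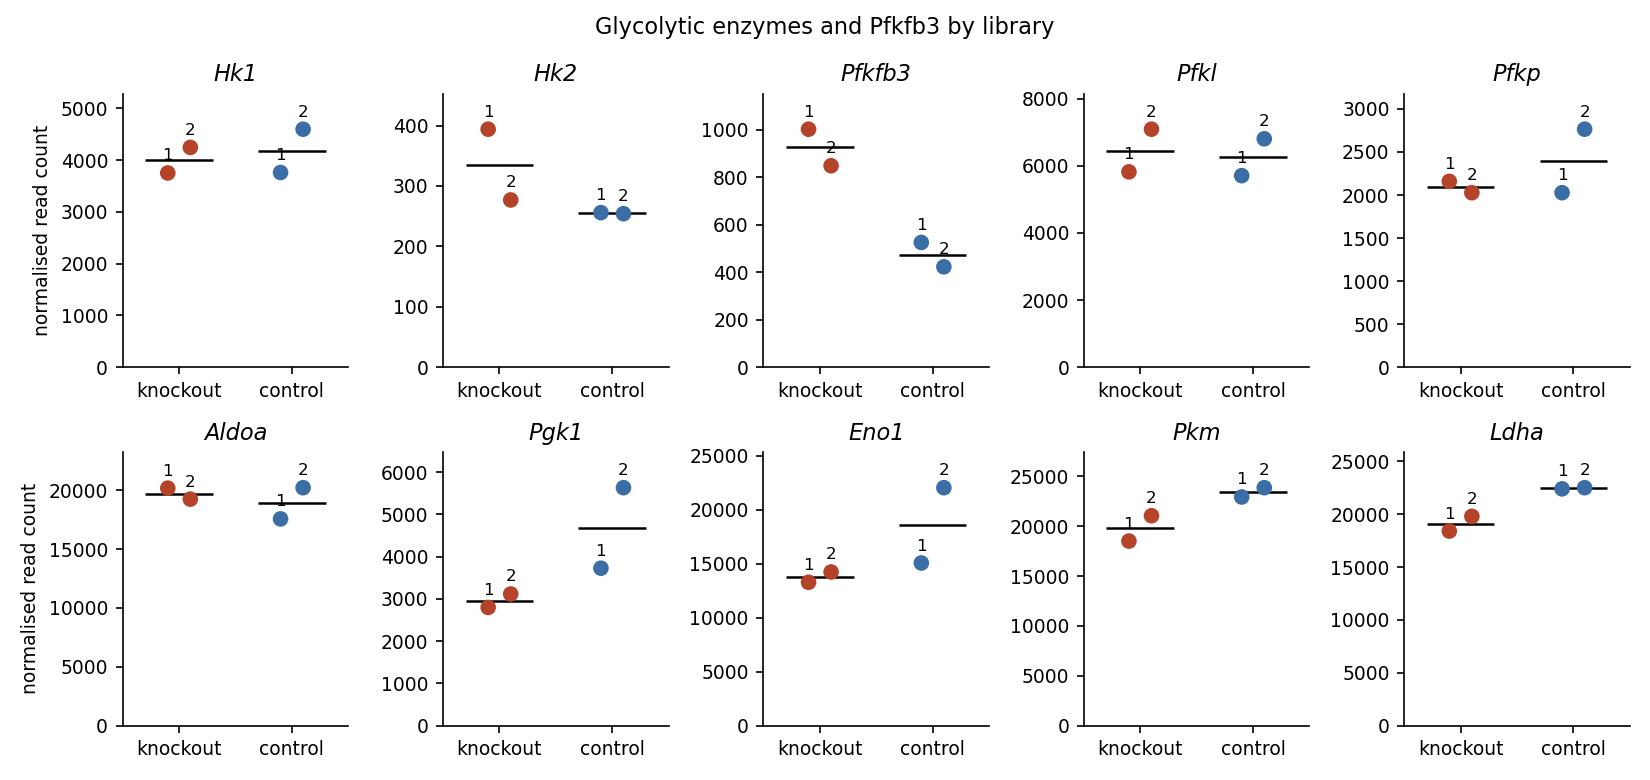
Normalised read count (linear axis from 0) of each of the 10 genes in the 2 knockout and 2 control libraries. Points are libraries with their replicate numbers and lines are group means. Pfkfb3 and, by less, Hk2 have both knockouts above both controls, Pgk1, Eno1, Pkm and Ldha have both knockouts below both controls, and the main Aldoa row, Hk1, Pfkl and Pfkp overlap.

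The plot of all members by library shows 3 behaviours. Both knockouts lay above both controls for 2 of the 11 rows, Pfkfb3 and Hk2, and 25.5% of all tested genes did so. Both lay below for 4 rows, Pgk1, Eno1, Pkm and Ldha, against 25.6% of all tested genes. The other 5 rows overlapped, so that 6 of 11 did not, against 51.2% of all tested genes without overlap. An unadjusted limma p under 0.05 was reached by 4 rows, and by 18% of all tested genes. These counts rest on few rows and, apart from the call of Pfkfb3, are not read as a result about the members. The median log2 difference was −0.06 over the 11 rows and 0.00 over all tested genes.

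Mammals have 4 PFKFB genes, and Pfkfb3 was the most abundant of them per length in every library. Divided by the gene lengths in the deposited tables, Pfkfb3 reached 132.5 and 112.1 normalised reads per kilobase in knockouts, against 69.4 and 55.9 in controls. Its share of the summed PFKFB level was 53.6% and 50.5% in knockouts, against 42.3% and 39.5% in controls, without overlap. Pfkfb2, the heart-type enzyme activated by kinase signalling, stood at 58.0 and 63.5 reads per kilobase in knockouts and 55.2 and 51.0 in controls. Pfkfb2 thus lay well below Pfkfb3 in knockouts and nearer to it in controls.

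The other PFKFB genes did not pass the test. Pfkfb4, which like Pfkfb3 answers to hypoxia, had 180 and 162 normalised reads in knockouts against 142 and 104 in controls, a log2 difference of 0.49 (SE 0.26, limma adjusted p = 0.352). Pfkfb2 differed by 0.19 (adjusted p = 0.533) and Pfkfb1, the liver and muscle form, by 0.44 (adjusted p = 0.556), both by limma. Differences between these family members were not tested. All 4 log2 differences were positive, and the summed level per kilobase was higher in both knockouts, mostly through Pfkfb3.

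**Figure D2:**
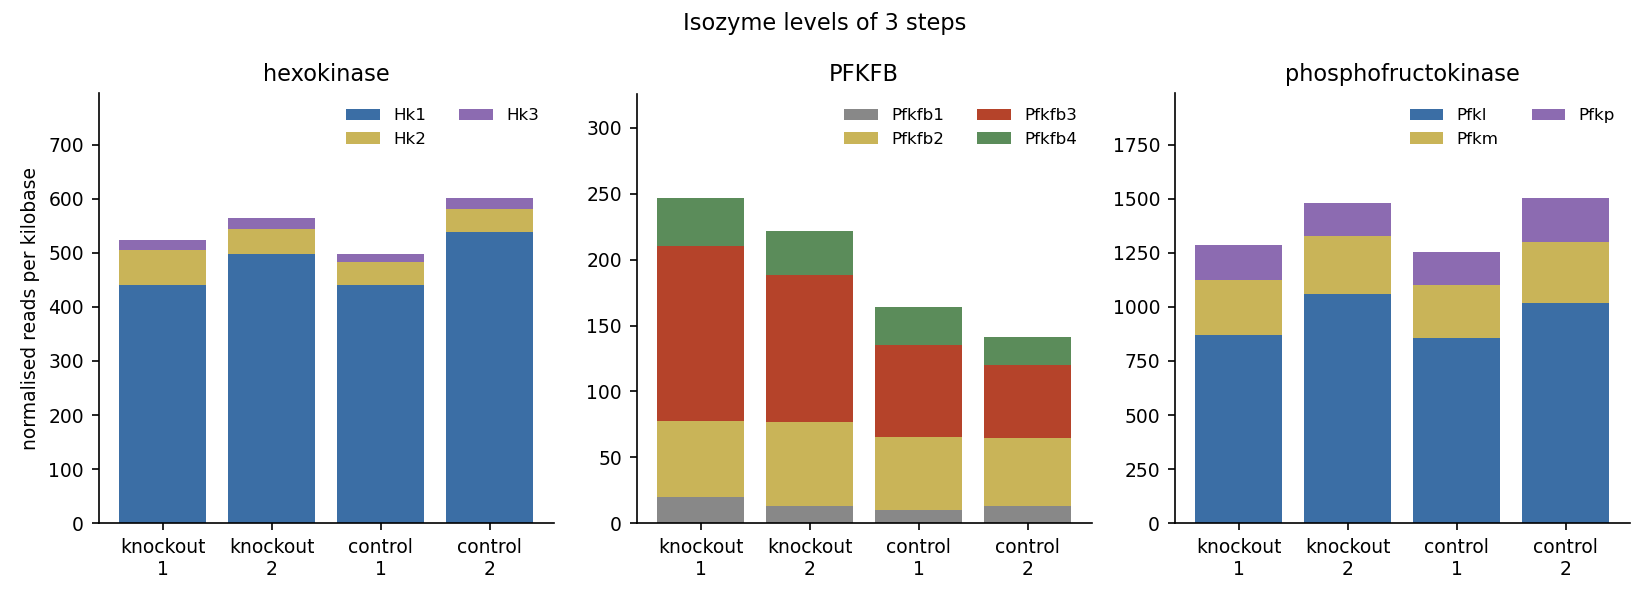
Stacked normalised reads per kilobase of gene length (linear axes from 0) for hexokinases, PFKFB enzymes and phosphofructokinases, in the 2 knockout libraries and then the 2 control libraries. Pfkfb3 makes up 53.6% and 50.5% of the PFKFB bar in knockouts, against 42.3% and 39.5% in controls, while Hk1 and Pfkl lead their steps in all 4 libraries.

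Phosphofructokinase itself, the enzyme that the Pfkfb3 product activates, did not pass the test. Pfkl, the liver-type subunit, is ENSMUSG00000020277 at chr10:77986947-78010083. It had 5815.9 and 7086.1 normalised reads in knockouts against 5702.1 and 6800.2 in controls, a log2 difference of 0.04 (SE 0.13, limma adjusted p = 0.901). Pfkp, the platelet-type subunit, is ENSMUSG00000021196 at chr13:6579768-6648777 and carries the miR-9-5p seed match printed above. It had 2158.8 and 2027.0 normalised reads in knockouts against 2027.1 and 2764.9 in controls, a log2 difference of −0.18 (SE 0.15, limma adjusted p = 0.561). Both genes overlapped between the groups, and Pfkp had a single high library, control 2. The sign of both turned when single libraries were left out: Pfkl ran from −0.10 to 0.19 and Pfkp from −0.40 to 0.05.

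In level per kilobase Pfkl made up 67.7% and 71.8% of the phosphofructokinase sum in knockouts, against 68.1% and 67.7% in controls. Pfkp made up 12.5% and 10.2% in knockouts and 12.1% and 13.7% in controls. Pfkm, the muscle-type subunit, filled the rest, and its log2 difference was −0.02 (limma adjusted p = 0.953), with a sign that turned under quantile and library-total scaling. The subunit mix of this step therefore overlapped between the groups.

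Hexokinases trap glucose in the cell as glucose-6-phosphate. Hk1, the broadly expressed form, is ENSMUSG00000037012 at chr10:62268855-62379908. It had 3753.6 and 4247.2 normalised reads in knockouts against 3762.4 and 4599.2 in controls. The groups overlapped almost fully, with a log2 difference of −0.06 (SE 0.13, limma adjusted p = 0.848) that was 0.02 under quantile scaling.

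Hk2, the inducible form of muscle, fat and many tumours, is ENSMUSG00000000628 at chr6:82725025-82774454. It had 393.96 and 276.8 normalised reads in knockouts against 255.82 and 254.07 in controls. Both knockouts were above both controls, but knockout 2 only slightly, and knockout 1 alone stood apart. The log2 difference was 0.37 (SE 0.21, limma adjusted p = 0.387), and the knockouts differed from each other by 0.51. Without knockout 1 the difference was 0.12, and without knockout 2 it was 0.63. Hk2 is the member with 2 matches to the miR-9-5p seed, and its difference did not exceed the spread between libraries.

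Hk1 was the main hexokinase per kilobase, at 83.8% and 88.3% of the step in knockouts against 88.7% and 89.5% in controls. Hk2 made up 12.6% and 8.22% in knockouts against 8.62% and 7.07% in controls, with overlap. Hk3, the white blood cell form, had a log2 difference of 0.19 (limma adjusted p = 0.816) that was −0.09 under quantile scaling. Hkdc1 was below the filter on low values.

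Aldolase cleaves fructose-1,6-bisphosphate into the trioses. The main Aldoa row, ENSMUSG00000030695 at chr7:126795234-126800751, had 20169 and 19238 normalised reads in knockouts against 17559 and 20207 in controls. The groups overlapped, with a log2 difference of 0.06 (SE 0.11, limma adjusted p = 0.796). The second row, ENSMUSG00000114515 at chr7:126800790-126809108, lies just beyond the first on the same strand and was read far less. It had 51.7 and 62.2 normalised reads in knockouts against 48.3 and 68.7 in controls, and its log2 difference was −0.02 (limma adjusted p = 0.985), 0.01 under library-total scaling. Aldoc, the brain-type aldolase, made up 31.2% and 35.2% of the aldolase level per kilobase in knockouts, against 32.0% and 30.0% in controls.

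The 4 members after the trioses had both knockouts below both controls, and 0 of them passed the test. Pgk1 makes the first ATP of the pathway. Pgk1 (ENSMUSG00000062070, chrX:106187100-106203699) had 2797.5 and 3114.7 normalised reads in knockouts against 3725.4 and 5629.5 in controls. The means were 2956 ± 224 in knockouts and 4677 ± 1346 in controls (SD, n = 2 each). Control 2 was the highest library and control 1 lay between it and the knockouts, so the spread in controls was wide. The log2 difference was −0.63 (SE 0.19, limma adjusted p = 0.169).

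Enolase makes phosphoenolpyruvate, and Eno1 is its ubiquitous form. Eno1 (ENSMUSG00000063524, chr4:150236721-150248879) had 13286 and 14238 normalised reads in knockouts against 15071 and 22049 in controls. Here too control 2 was far above the other 3 libraries. The log2 difference was −0.41 (SE 0.17, limma adjusted p = 0.283).

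Both values turned on the controls. Without control 1, limma gave −0.93 for Pgk1 (adjusted p = 0.0104) and −0.68 for Eno1 (adjusted p = 0.0234), and the members called were then Pfkfb3 higher and these genes lower. In that fit 2361 genes were called, against 131 with all libraries. Without control 2 the differences shrank to −0.34 for Pgk1 and −0.13 for Eno1. Over all alternatives the adjusted p of Pgk1 ran from 0.0104 to 0.732, and that of Eno1 from 0.0234 to 0.752.

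Pkm, pyruvate kinase, makes the last ATP and the pyruvate. Pkm (ENSMUSG00000032294, chr9:59656368-59679375) had 18515 and 21057 normalised reads in knockouts against 22939 and 23871 in controls. The controls were close together and above both knockouts, with a log2 difference of −0.25 (SE 0.11, limma adjusted p = 0.276). The gene row does not separate its M1 and M2 splice forms.

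Ldha turns pyruvate into lactate. Ldha (ENSMUSG00000063229, chr7:46841475-46855627) had 18402 and 19791 normalised reads in knockouts against 22390 and 22501 in controls. The controls were nearly equal and both knockouts lay below them. The log2 difference of −0.23 (SE 0.10, limma adjusted p = 0.261) did not pass. Its share of the lactate dehydrogenase level per kilobase was 83.6% and 80.5% in knockouts and 83.6% and 81.3% in controls, so its balance with Ldhb, the heart-type form, overlapped.

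Several of these genes have near-identical copies, and how the authors placed reads that match more than 1 gene is not given in the sources used here. All 1205 of the 50-base stretches of the Pgk1 coding sequence occur in transcripts of other genes, as do 83.36% of those of Eno1, 47.77% of Pkm and 10.608% of Ldha. Pgk1, Eno1 and Pkm values are therefore uncertain in level. Adding the listed copies left the log2 differences at −0.63 for Pgk1, −0.40 for Eno1 and −0.24 for Pkm. Listed were 3 of 3 copies of Eno1, 2 of 3 of Pkm and 1 of 3 of Pgk1. That Pgk1 copy had 8.95 and 11.7 normalised reads in knockouts and 11.3 and 14.9 in controls. Adding it could therefore hardly change the Pgk1 difference. For Hk1, Hk2, Pfkl, Pfkp, Pfkfb3 and Aldoa no other gene shared at least 100 such stretches. The second Aldoa row was not compared with the first.

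Per kilobase the order of the members was much the same in both groups. Knockout means fell in the order Aldoa (6769), Ldha (5769), Pkm (3957), Eno1 (2559), Pgk1 (1317), Pfkl (966), Hk1 (469), Pfkp (156), Pfkfb3 (122) and Hk2 (56.2). In controls Ldha (6781) and Aldoa (6487) led, and their libraries overlapped. They were followed by Pkm (4680), Eno1 (3450), Pgk1 (2084), Pfkl (937), Hk1 (490), Pfkp (179), Pfkfb3 (62.7) and Hk2 (42.7). Neighbours in this order other than Ldha and Aldoa in controls did not overlap. Pfkfb3 stayed next to last in both groups, but closer to Pfkp in knockouts.

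**Figure D3:**
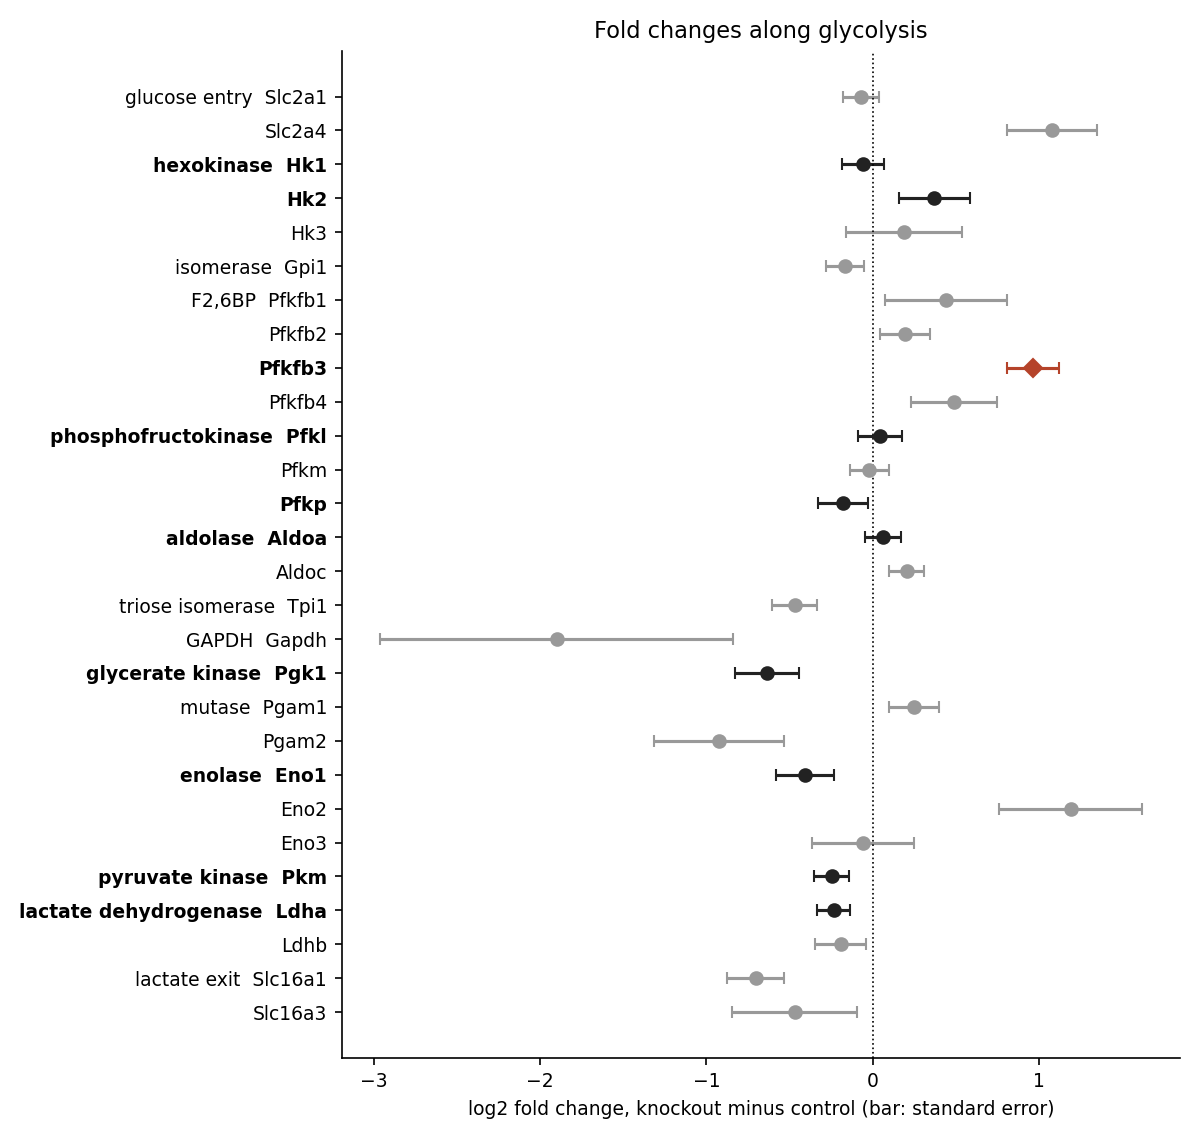
Log2 fold change, knockout minus control, from the limma fit (points; bars are standard errors) along glycolysis from glucose entry to lactate exit, with the 10 genes in bold and their main rows shown. The red diamond is Pfkfb3, at 0.97 the point past the threshold, while the bold points from Pgk1 to Ldha lie below 0.

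Of 14 other glycolytic enzymes tested, 0 passed in limma and 3 had an unadjusted p under 0.05, with a median log2 difference of −0.10. Over all tested genes 0.583% passed and 18% had such a p, and these shares also stand beside the lists below. Tpi1, triose-phosphate isomerase, had 5338.4 and 5295.1 normalised reads in knockouts against 6423.4 and 8416.3 in controls. Control 2 was again the highest library, and the log2 difference was −0.47 (SE 0.14, limma adjusted p = 0.139). Without control 1 its difference was −0.66 (adjusted p = 0.0187, with a range of 0.0187 to 0.732 over the alternatives). Eno2, the neuronal enolase, was low, at 58.7 and 45.6 normalised reads in knockouts against 28.8 and 16.9 in controls (log2 difference 1.19, limma adjusted p = 0.210). Pgam2, the muscle mutase, had 22.9 and 23.3 in knockouts against 50.3 and 39.9 in controls (log2 difference −0.93, limma adjusted p = 0.267). The skeletal muscle markers, 8 of 12 tested, summed to 96.5 and 99.1 in knockouts and to 346 and 108 in controls, and their part in the Pgam2 values was not tested.

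Around the PFKFB step, 17 genes of fructose-2,6-bisphosphate turnover and pyruvate entry into mitochondria gave 0 calls, and 0 had an unadjusted p under 0.05 in limma. Their median log2 difference was 0.15. Besides Pfkfb4, the smallest p-values were those of Pdk4, a kinase that shuts pyruvate dehydrogenase (1.13, limma adjusted p = 0.364), and Pdhb, a subunit of that enzyme (−0.18, limma adjusted p = 0.369).

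Transport of glucose and lactate held some of the widest gaps outside the members, again without a call: 0 of 12 in limma, 4 with an unadjusted p under 0.05, median −0.09. Slc2a4 encodes GLUT4, the insulin-regulated glucose carrier of fat and muscle. It had 373 and 255 normalised reads in knockouts against 174 and 122 in controls (log2 difference 1.08, SE 0.27, limma adjusted p = 0.106). Slc16a1 encodes MCT1, a lactate carrier. It had 420 and 388 normalised reads in knockouts against 567 and 763 in controls (log2 difference −0.70, SE 0.17, limma adjusted p = 0.103). Slc2a12, another glucose carrier, differed by 1.68 at low values (limma adjusted p = 0.197). GLUT1, Slc2a1, the main carrier of most tumours, overlapped at 1361 and 1269.4 in knockouts against 1324 and 1435 in controls. Without control 1, limma called 2 of the 12 higher, Slc2a4 (1.34, adjusted p = 0.0345) and Slc2a12 (2.27, adjusted p = 0.0488), and 1 lower, Slc16a1 (−0.92, adjusted p = 0.0162). Over all alternatives these adjusted p-values reached 0.732.

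Regulators of the pathway also gave 0 calls of 14 in limma, with 1 unadjusted p under 0.05 and a median of 0.00. That gene was Epas1, which encodes HIF-2α and is rich in endothelium. It had 1780 and 1738 normalised reads in knockouts against 1224 and 781 in controls (log2 difference 0.85, SE 0.20, limma adjusted p = 0.111). Without control 1 the Epas1 difference was 1.17, and without control 2 it was 0.52. The endothelial markers summed to 2014 and 1564 in knockouts against 1505 and 791 in controls. Of these markers 2 of 7 were higher in both knockouts, against 25.5% of all tested genes, and their part in the Epas1 values was not tested. Esrra, a nuclear receptor of energy metabolism, differed by −0.29 (limma adjusted p = 0.308) and Myc, a driver of glycolytic genes, by −0.26 (limma adjusted p = 0.322). Hif1a, which encodes the oxygen-regulated HIF-1α, differed by 0.00 (limma adjusted p = 0.996).

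Genes known to answer to hypoxia formed a list of 17. Of these, limma called 0, 4 had an unadjusted p under 0.05, and the median was −0.07. Both knockouts lay above both controls for 1 and below for 5, against 25.5% and 25.6% of all tested genes. Of all tested genes 18% had an unadjusted p under 0.05, so these counts are not read as a result about the list. Car12, a membrane carbonic anhydrase, differed by 0.44 (limma adjusted p = 0.0935). Ddit4, an mTORC1 inhibitor, differed by −0.49 (limma adjusted p = 0.0935), Egln3, an oxygen-dependent hydroxylase, by −0.82 (SE 0.20, limma adjusted p = 0.117), and Car9, a carbonic anhydrase, by −0.48 (limma adjusted p = 0.222). Without control 1 the median of the 17 was −0.19, and without control 2 it was −0.01.

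The branches that leave glycolysis gave 0 calls in the reported limma fit. Of 9 pentose phosphate genes 0 passed and 1 had an unadjusted p under 0.05, with a median of −0.11. Prps2, which makes the nucleotide precursor PRPP, differed by 0.28, Pgd, the second oxidative dehydrogenase, by −0.22, and G6pdx, the first, by 0.25. Of 9 serine and glycerol genes 0 passed and 2 had an unadjusted p under 0.05, with a median of −0.03. Gpd2 and Gpd1, the mitochondrial and cytosolic glycerol-3-phosphate dehydrogenases, differed by 0.50 (limma adjusted p = 0.126) and 0.82 (limma adjusted p = 0.156), and Shmt1, which passes a carbon from serine to folate, by −0.26. Without control 1 the limma adjusted p of Gpd1 was 0.0286, and over the alternatives it ran from 0.0286 to 0.732. Of 10 glycogen genes 0 passed and 1 had an unadjusted p under 0.05, with a median of 0.08. Gbe1, the branching enzyme, differed by 0.44, and the phosphorylases Pygl and Pygb by 0.91 and 0.24. Without control 1 the glycogen median was 0.01, and without control 2 it was 0.15.

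Marker levels of the cell types of the gland are given beside Pfkfb3. Of all tested genes, 25.5% were higher and 25.6% lower in both knockouts, the shares to set beside the counts that follow. Adipocyte markers summed to 40323 and 13037 normalised reads in knockouts against 16203 and 7666 in controls, with 6 of 10 higher in both knockouts. Leukocyte markers summed to 4328 and 3538 in knockouts against 2702 and 2126 in controls, with 5 of 8 higher in both. Ms4a1, a gene of B cells, was at 0 in knockout 2 and control 2. Knockout 1 was thus the library richest in fat and leukocyte markers.

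Basal and myoepithelial markers summed to 30436 and 34502 in knockouts against 19489 and 9492 in controls, with 7 of 9 higher in both. Most of that sum came from Acta2, Cnn1, Myh11 and Mylk, with log2 differences of 1.44, 1.53, 1.76 and 1.41. Trp63 and Oxtr were also higher in both knockouts, with log2 differences of 0.50 and 1.37. The keratins differed from each other. Krt14 was lower in both knockouts, at 873 and 895 against 1313 and 1133 in controls, and Krt17 overlapped. Krt5 was higher in both knockouts, by 0.21. Fibroblast markers summed to 44727 and 30808 in knockouts against 32713 and 17155 in controls, with 2 of 8 higher in both. Luminal markers, the defining genes of the epithelium that carries the oncogene, were present in all libraries. They summed to 97250 and 87537 in knockouts against 101440 and 104260 in controls, with 9 of 10 lower in both and Krt19 called higher. Control 2 had the lowest sums of basal, fibroblast, endothelial and fat markers.

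Erythroid markers were higher in both knockouts for 4 of 5 genes, 2 of them called by limma, and summed to 3618 and 2739 in knockouts against 1138 and 1353 in controls. Schwann cell markers summed to 9093 and 9979 in knockouts against 10033 and 9699 in controls. Outside erythroid and luminal markers, limma called 0 of 55 marker genes, and 15 had an unadjusted p under 0.05, against 18% of all tested genes. Without control 1 the median log2 difference was 1.192 for fibroblast, 1.916 for basal, 1.196 for endothelial and 1.605 for adipocyte markers. It was 0.8351 for the 6 leukocyte markers tested there, 0.6278 for Schwann cell and −0.2863 for luminal markers, against −0.002954 over all tested genes. Without control 2 the medians were 0.1368 for fibroblast, 0.6578 for basal, 0.1389 for endothelial and 0.7655 for adipocyte markers. They were 0.6339 for leukocyte, 0.5482 for Schwann cell and −0.2457 for luminal markers, against −0.004084 over all tested genes. The part of these cell types in the Pfkfb3, Pgk1 and Eno1 values was not tested.

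The genes whose pattern over the 4 libraries was most like that of Pfkfb3 were Krt19, Ppp1r3c, Sash3, Rasgef1c and Svil. Likeness was the Euclidean distance between centred log2 values among 11208 tested genes with a mean of at least 100 and a symbol that is not a clone name. The distances ran from 0.0336 for Krt19, a keratin, to 0.0779 for Svil, an actin-binding protein. Krt19 had 14371 and 12004 normalised reads in knockouts against 7506 and 5887 in controls, a log2 difference of 0.98 (limma adjusted p = 0.0351). Ppp1r3c, which targets a phosphatase to glycogen, differed by 1.00 (limma adjusted p = 0.0532) and Svil by 0.96 (limma adjusted p = 0.0244). Over only 4 libraries many genes can share such a shape.

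**Figure D4:**
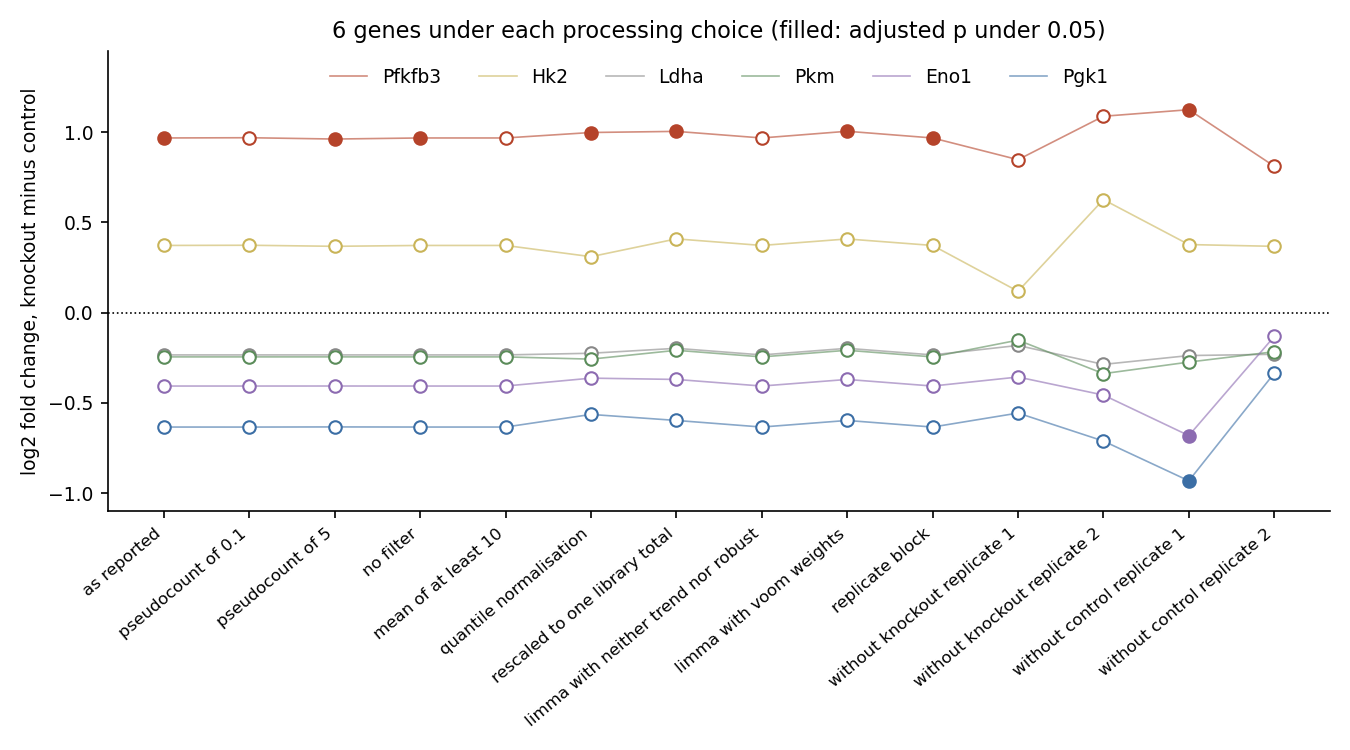
Log2 fold change, knockout minus control, of 6 of the genes (lines, named in the legend) in the reported fit and 13 alternatives along the x axis; filled points have a limma adjusted p under 0.05. Pfkfb3 stays between 0.81 and 1.12 and is filled in 8 of the 14 fits, and Pgk1 and Eno1 are filled only without control 1.

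The plot of 6 genes under each processing choice shows that for Pfkfb3 the size was steadier than the call. Leaving out single libraries moved Hk2 between 0.12 and 0.63, Eno1 between −0.68 and −0.13 and Pgk1 between −0.93 and −0.34. Ldha moved between −0.29 and −0.18 and Pkm between −0.34 and −0.15. Pfkfb3 stayed the highest of the 6 in every fit, and Pgk1 the lowest. Hk2 kept a positive sign and Ldha, Pkm, Eno1 and Pgk1 a negative one in all 14 fits, although none of these 5 passed with all 4 libraries. For all 6 genes the groups did not overlap, so leaving out a library could not turn the sign. The filters, the replicate block and limma without trend and robust settings left the difference itself unchanged. The kept signs are therefore not read as a sign of robustness.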

How the data were processed

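RNA of mammary glands was sequenced in 2 knockout and 2 control libraries (TruSeq kit, NovaSeq instrument, per the labels' protocols). The submitters' processing notes name Bowtie 0.12.2, hg38, GRCm38 and mm10 without their roles. The counter, its strand setting and the scaling method are not given in the sources used here, so antisense partners cannot be told apart.

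The deposited values are a normalised signal, read counts over 1 scaling factor for each library. All values (100%) were whole multiples of a step (0.994858 and 0.971231 in knockouts, 1.02741 and 0.996366 in controls), within a tolerance of 1e-06. A rule for accepting recovered reads refused 2 libraries, so no count test was run. Differences are relative to the typical gene.

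Genes with a value of at least 1 in at least 2 libraries (22455) were tested as log2(value + 1), which understates changes of low genes. The tool was limma 3.58.1 (R 4.3.3), with genotype alone in the model, trend and robust options on, Benjamini-Hochberg adjustment and a threshold of 0.05. It was run on simulated counts with the same spread setting for every gene. That run does not copy the spread of these libraries and does not measure how well their calls hold. Coordinates are those of the deposited tables on GRCm38. 3′ UTRs and coding sequences are GENCODE M21's. A copy shares at least 100 of the 50-base stretches with a gene.

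The members and the gene lists were chosen with earlier results of these data known. Named were the members, their isozymes, the 5 genes most like Pfkfb3 and, from each pathway list, genes past the threshold or otherwise the 3 with the smallest unadjusted p. Aldoc, Ldhb, Slc2a1, Slc16a3, Hif1a, Gapdh, other genes in the pathway plot and the marker genes were added after their values were seen. Alternatives changed the pseudocount, filter, scaling, limma options, replicate block and each library in turn.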

Additional observations from a re-analysis of the deposited data

How the results depend on the processing

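Pfkfb3 kept its direction in all 13 alternatives and passed the threshold in 8 of the 14 fits. It did not pass with a pseudocount of 0.1 (log2 difference 0.97, limma adjusted p = 0.0882), with a mean value of at least 10 (0.97, adjusted p = 0.0671) or with limma using neither trend nor robust settings (0.97, adjusted p = 0.278). Leaving out single libraries gave 0.81 to 1.12, and could not turn the direction, since both knockouts lay above both controls. The number of members called was 1, and 0 in those 3 alternatives, and it ran from 0 to 3 when single libraries were left out. Over all genes 131 were called. The number was 33 with a pseudocount of 0.1, 258 with a pseudocount of 5, 332 with no filter, 69 with a mean value of at least 10, 257 with quantile scaling and 202 with voom weights. It was 0 with neither trend nor robust settings, where 2983 genes had an unadjusted p under 0.05. It ran from 0 to 2361 when single libraries were left out, with 0 without knockout 1 (1384 at an unadjusted p under 0.05), 0 without knockout 2 (1805), 2361 without control 1 and 173 without control 2. Where a group kept a single library, that library was assumed to vary like the other group. With the replicate number as a block, 367 genes were called and Pfkfb3 had an adjusted p of 0.033. The block also gave calls for Gpd1 (0.82, adjusted p = 0.0368) and, lower, for Egln3 (−0.82, adjusted p = 0.0417), 1 of 17 hypoxia genes, and called 6 of 10 adipocyte, 2 of 8 fibroblast and 1 of 8 leukocyte markers higher. The numbers are shared only as numbers: deviations of same-numbered libraries correlated at 0.1184 over 22455 genes with 2 pairs, and nothing in the labels says that a number pairs mice.

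Signs of members near 0 turned. Hk1 was 0.0236 with quantile scaling and −0.204 to 0.0857 when single libraries were left out. The same omissions gave −0.0985 to 0.186 for Pfkl, −0.402 to 0.0454 for Pfkp and −0.0368 to 0.166 for the main Aldoa row. The second Aldoa row was 0.013 with library-total scaling and 0.0138 with voom weights, and −0.273 to 0.228 without single libraries. Hk3 was −0.087 with quantile scaling and −0.121 to 0.499 without single libraries. Pfkm was 0.0218 with quantile scaling, 0.0179 with library-total scaling and 0.0179 with voom weights, and −0.105 to 0.0675 without single libraries. In all, 11 of the members' fold changes reversed, 124 kept direction and call, 2 gained and 6 lost the call. The causes were not tested. Every value rests on 2 libraries a group.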

Other observations

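Gapdh, the glyceraldehyde-3-phosphate dehydrogenase between Tpi1 and Pgk1, was not read as a measure of its step. It had 129 and 112 normalised reads in knockouts against 175 and 1167 in controls, or 31.3 and 27.0 per kilobase in knockouts against 42.3 and 282 in controls. That is far below its neighbours in all 4 libraries, since Tpi1 stood at 1939 and 1923 per kilobase in knockouts and 2333 and 3057 in controls. Of the 50-base stretches of its coding sequence 94.18% also occur in other genes, and 62 of 87 such copies are listed, summing to 416 and 491 in knockouts and 423 and 550 in controls. Its log2 difference of −1.90 (SE 1.06, limma adjusted p = 0.445) became −0.82 with the copies added, and control 2 alone was high.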
